A study of Mus musculus with 24 samples.

Results

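The 9 genes described here belong to neurotrophin and neuregulin signalling. They are the neurotrophin ligand Ntf3, the neurotrophin receptors Ntrk2, Ntrk3 and Ngfr, the neuregulin ligands Nrg1, Nrg2 and Nrg3, and the receptors Erbb4 and Egfr. They were chosen by name, with earlier results of these data known. All 9 were found among the 33902 gene symbols of the snRNA-seq count table, of which 24691 had counts in both strains. Of the 9, 8 had enough counts to be tested between strains in at least 1 cell type, and Ngfr had enough in none.

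Neurotrophins are secreted growth factors that act through Trk receptor tyrosine kinases, and the receptor Ngfr binds all of them with low affinity. TrkB, the product of Ntrk2, is the receptor for brain-derived neurotrophic factor and is known for its part in hippocampal synaptic plasticity, while TrkC, the product of Ntrk3, is the preferred receptor of neurotrophin-3, the product of Ntf3. Neuregulins carry an EGF-like domain that binds ErbB receptor tyrosine kinases, and ErbB4 is known in the hippocampus as a receptor of GABAergic interneurons.

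The tissue was the ventral hippocampus of adult males, 10 to 16 weeks old, of the inbred strains C57BL/6J (B6) and DBA/2J (D2, labelled DBA), with no treatment or transgene in either strain. Each assay has 2 libraries per strain, and each library pooled tissue of about 2 animals. For snRNA-seq the nuclei were sorted on the neuronal marker NeuN to enrich for neurons, and for snATAC-seq they were not. The authors added up counts by cell type and library, giving 17 cell types in snRNA-seq and 15 in snATAC-seq.

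The snRNA-seq libraries held 43048686 to 56452272 counts over 30880 nuclei in all, and the snATAC-seq libraries 90684494 to 122322471 counts over 27206 nuclei. The shallowest snRNA-seq column, a D2 library of CR-CR, held 139713 counts from 45 nuclei, and the deepest, a B6 library of Exc-DG, held 11352265. The cell type names are the authors' own, where Exc, Inh and NN stand for excitatory, inhibitory and non-neuronal types and CR for Cajal-Retzius. Of 14 marker lists, 12 had their highest summed level in a type of the matching name. The dentate granule and Lamp5 lists were highest in CR-CR, followed by Exc-DG and Inh-Lamp5, and in CR-CR these sums came mainly from Prox1 and Ndnf.

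Levels are given as CPM, the counts of a cell type and library scaled to a total of 1000000, with the B6 or D2 libraries in the order library 2, library 3. Strain differences are log2 fold changes, D2 minus B6, with the standard error (SE) and the adjusted p of edgeR's quasi-likelihood test, adjusted over all genes of the cell type. Calls are at an adjusted p under 0.05. D2 reads were aligned to a reference with D2 single-base substitutions, and the gene lists of the strains differ. Beyond the alternatives given further on, the part of reference and gene list in the RNA differences cannot be told apart from that of strain. For comparison with the counts of types below, 8.4% of the tested pairs of all genes and types were called lower in D2 and 6.24% higher. No permutation p is given for single genes, because 2 libraries per strain allow none under 0.33 in an exact test. Levels across cell types carry no test, because the authors defined the types by clustering the same nuclei.

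**Figure D1:**
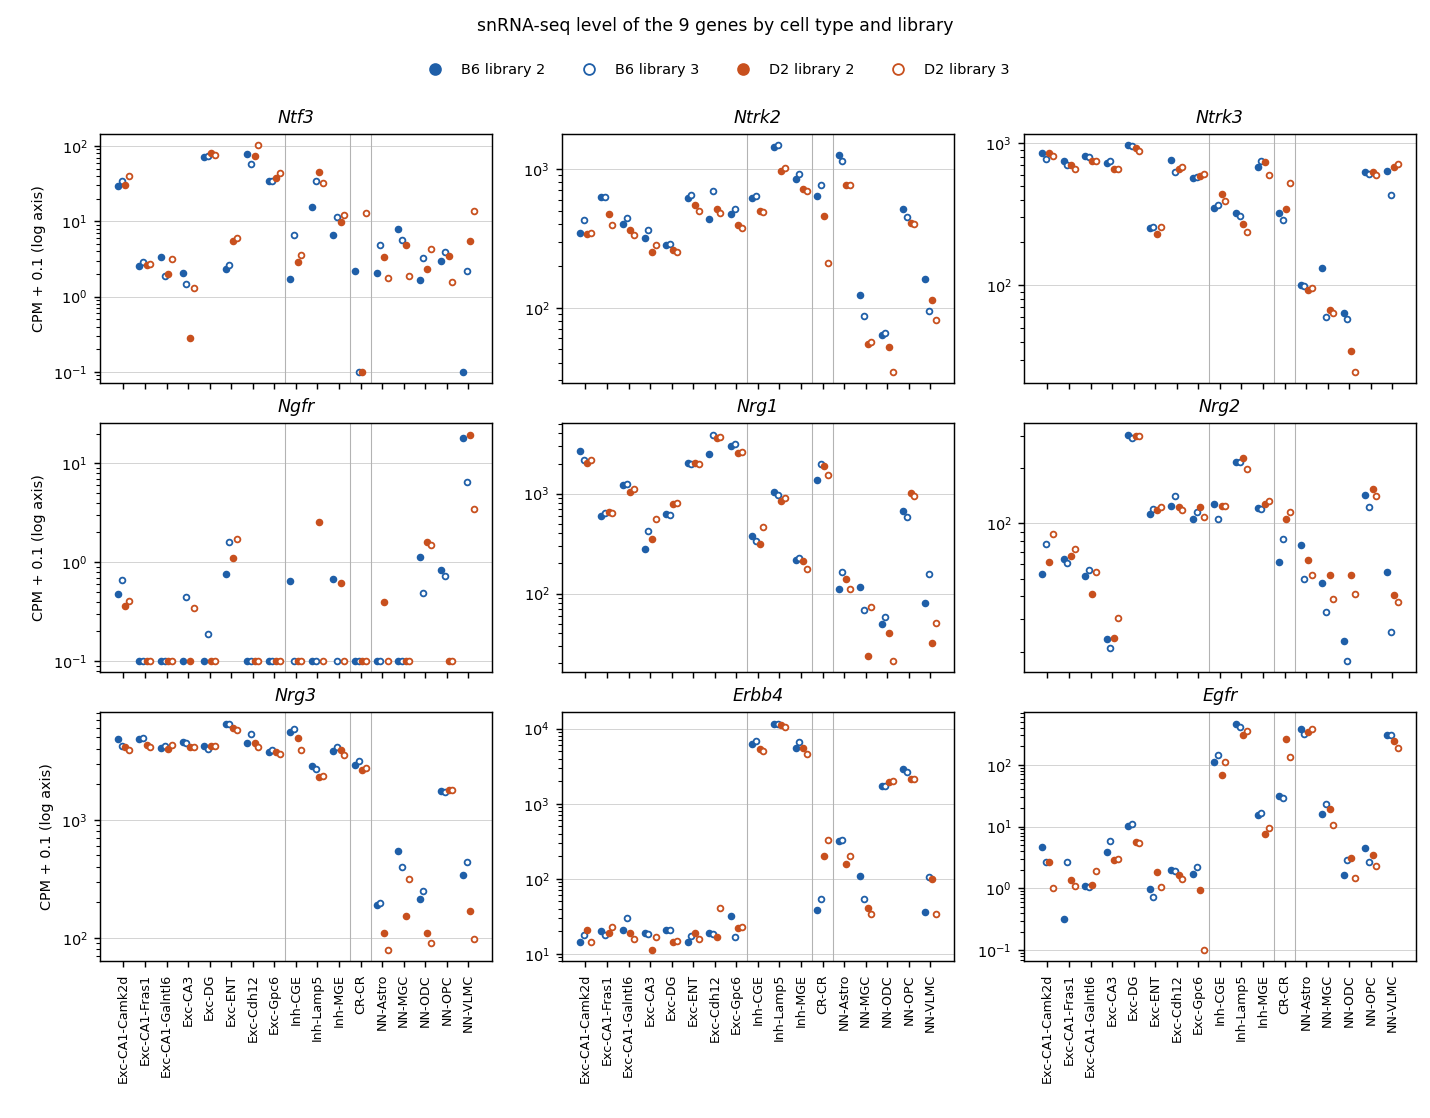
Level of each of the 9 genes (CPM plus 0.1, log axis) in 17 cell types, with 1 point per library; blue points are B6 and orange points D2, filled for library 2 and open for library 3. Erbb4 lies at 10660 to 11680 CPM in Inh-Lamp5 and at most at 41.3 CPM in a library of an excitatory type, while Nrg3 lies at 2310 CPM or more in every neuronal library.

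Among the ligands, Ntf3 was highest in Exc-Cdh12, at a mean of 77.6 CPM (range over the 4 libraries 58.1 to 101), and in Exc-DG, at 75.0 CPM (72.0 to 79.3). Those ranges overlapped, and both lay above that of the next type, Exc-Gpc6, at 37.1 CPM (33.7 to 43.9). The lowest level was in Exc-CA3, at 1.18 CPM (0.185 to 1.96). Ntf3 was tested in 10 of 17 types and called in 1. In Exc-ENT it measured 2.20 and 2.55 CPM in B6 and 5.46 and 5.83 CPM in D2, so the D2 libraries were higher than the B6 libraries, with no overlap. The difference was 1.14 ± 0.39 (SE) with an adjusted p of 0.0428, and the call was lost with any 1 of the 4 libraries left out (log2 1.03 to 1.26) and under DESeq2. In Exc-DG, where the level was far higher, B6 measured 72.0 and 73.8 CPM and D2 79.3 and 74.7 CPM, a log2 difference of 0.02 ± 0.08 that was not called.

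Ntrk2 lies on chromosome 13 from 58806569 to 59133970 of GRCm38 on the plus strand. It was highest in Inh-Lamp5, at a mean of 1222 CPM (961 to 1477), in NN-Astro, at 986 CPM (766 to 1270), and in Inh-MGE, at 796 CPM (696 to 926), and the range of each overlapped the next. It was lowest in NN-ODC, at 53.8 CPM (34.3 to 65.6).

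Ntrk2 was lower in D2 in 12 of the 17 types in which it was tested, and higher in none. All 17 fold changes lay below 0, from -1.16 to -0.21 with a median of -0.41, and in 15 types both D2 libraries lay below both B6 libraries. Over all genes and types, 23.5% of the tested pairs had D2 libraries that did not overlap B6 in this direction. Of the 10667 genes tested in at least 12 types, 2.07% were called lower in at least 12. In NN-Astro, B6 measured 1270 and 1136 CPM and D2 772 and 766 CPM, a difference of -0.60 ± 0.09 with an adjusted p of 1.20e-05. In Inh-Lamp5, B6 measured 1430 and 1477 CPM and D2 961 and 1021 CPM (-0.63 ± 0.11, adjusted p = 1.55e-05). In Exc-CA1-Fras1, B6 measured 624 and 630 CPM and D2 475 and 392 CPM (-0.64 ± 0.09, adjusted p = 5.81e-06). In these 3 types the strains were separate in every library, and the calls held with each library left out in turn and under DESeq2.

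The other types called lower for Ntrk2 were Exc-CA1-Galntl6, Exc-CA3, Exc-DG, Exc-ENT, Exc-Gpc6, Inh-CGE, Inh-MGE, NN-MGC and NN-OPC, with fold changes between -0.88 and -0.21. The largest of these was in NN-MGC, where the level was 122 and 87.5 CPM in B6 and 54.8 and 56.3 CPM in D2. Its call was lost without B6 library 2 (-0.62), D2 library 2 (-0.85) or D2 library 3 (-0.88) and under DESeq2. In the same NN-MGC columns the summed astrocyte markers measured 241 and 298 CPM in B6 and 217 and 157 CPM in D2, with none called. The lists of excitatory neurons, interneurons and the medial ganglionic eminence were lower in D2 too, and the Lamp5 and caudal ganglionic eminence lists overlapped. The part of RNA from other types in the NN-MGC difference of Ntrk2 was not tested. In Exc-Gpc6 the call was lost without D2 library 3 (-0.38), and in Exc-DG, Inh-CGE, Inh-MGE and NN-OPC it was lost with any 1 of at least 3 of the 4 libraries left out (-0.45 to -0.17). In Inh-CGE the calls of all genes were lost without D2 library 2 or D2 library 3, so those losses are not particular to Ntrk2. The calls in Inh-CGE (-0.41) and NN-OPC (-0.29) were also lost under DESeq2, which called 9 types. The number of types called was 6 without D2 library 3. The 5 types not called included CR-CR, where B6 measured 634 and 771 CPM and D2 456 and 212 CPM, the largest fold change of Ntrk2 in size (-1.16 ± 0.30, adjusted p = 0.0537). The antisense gene Gm47423, which overlaps Ntrk2, was lower in D2 in 7 of the 15 types in which it was tested. Strand use in the authors' counting is not given in the sources used here, and whether reads of the pair were kept separate was not tested.

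The stretch before the annotated start of Ntrk2 is shown because the gene was lower in 12 types, while the accessibility of its start, described further on, was called in none of the 6 excitatory types in which it was tested, which include 5 of the 12. It is the reference (B6) sequence of chr13:58806319-58806568, plus strand, from RefSeq (GRCm38.p6), with each CG in capitals. It holds 19 CG, and 19.7% of 32851 promoter stretches of the same 250 bases hold as many, against a median of 6. Of the 9 genes, 6 were found in the promoter table.
Ntrk2 promoter: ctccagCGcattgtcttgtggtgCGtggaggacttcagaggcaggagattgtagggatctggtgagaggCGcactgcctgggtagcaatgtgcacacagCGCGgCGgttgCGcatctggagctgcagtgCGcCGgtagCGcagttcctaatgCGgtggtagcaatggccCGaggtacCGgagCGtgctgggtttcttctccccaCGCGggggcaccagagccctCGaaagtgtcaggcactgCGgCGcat

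Ntrk3 was highest in Exc-DG, at a mean of 928 CPM (881 to 961), above and apart from Exc-CA1-Camk2d at 818 CPM (767 to 850), and lowest in NN-ODC, at 45.3 CPM (24.5 to 64.0). It was called lower in D2 in 3 of 17 types and higher in none, where 8.4% of the tested pairs of all genes were called lower. In NN-ODC, oligodendrocytes, B6 measured 64.0 and 58.2 CPM and D2 34.5 and 24.5 CPM, so the lower B6 library was above the higher D2 library (-0.99 ± 0.20, adjusted p = 0.00126). That call held with each library left out and was lost under DESeq2. In the same NN-ODC columns the caudal ganglionic eminence sum was 85.3 and 106.5 CPM in B6 and 80.9 and 60.9 CPM in D2, with Adarb2 called lower. Of the 8 lists of excitatory neurons and interneurons there, 5 were lower in D2, the 2 lists of dentate granule and CA3 neurons were higher and the pan-interneuron list overlapped. The part of neuronal RNA in the NN-ODC difference of Ntrk3 was not tested. The other calls were small. Exc-CA1-Galntl6 measured 811 and 797 CPM in B6 and 750 and 747 CPM in D2 (-0.17 ± 0.05, adjusted p = 0.0163), and Exc-CA3 724 and 745 CPM in B6 and 652 and 657 CPM in D2 (-0.23 ± 0.07, adjusted p = 0.0264). Both lost the call without D2 library 3 (-0.16 and -0.21) and under DESeq2, the first also without D2 library 2 (-0.19), and the second without B6 library 2 (-0.25) or B6 library 3 (-0.22).

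Ngfr, the low-affinity neurotrophin receptor, gave 64 counts in the 68 snRNA-seq columns, 19 of them in NN-VLMC and 19 in Exc-ENT, and 0 in 6 types. In NN-VLMC it measured 18.0 and 6.34 CPM in B6 and 19.5 and 3.38 CPM in D2, from 4, 3, 11 and 1 counts, and the strains overlapped. In Exc-ENT it measured 0.659 to 1.62 CPM. It was not tested in any type, and in the 6 types at 0 a level up to that of 3 counts, between 0.108 CPM in Exc-CA1-Galntl6 and 2.42 CPM in CR-CR, was not detectable.

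Of the neuregulin ligands, Nrg1 was highest in Exc-Cdh12, at a mean of 3428 CPM (2513 to 3904), followed by Exc-Gpc6 at 2845 CPM (2558 to 3172), with overlapping ranges. It was lowest in NN-ODC, at 42.5 CPM (21.0 to 58.6). Its strain difference took both directions, with 4 types called lower in D2 and 2 called higher. In Exc-DG, dentate granule neurons, Nrg1 measured 632 and 615 CPM in B6 and 783 and 799 CPM in D2, higher in both D2 libraries (0.28 ± 0.06, adjusted p = 0.00302). In NN-OPC, oligodendrocyte precursors, it measured 670 and 590 CPM in B6 and 1017 and 946 CPM in D2, also apart (0.61 ± 0.09, adjusted p = 1.65e-07). In Exc-CA1-Galntl6 it measured 1229 and 1243 CPM in B6 and 1029 and 1108 CPM in D2, apart in the other direction (-0.28 ± 0.05, adjusted p = 0.000221). These 3 calls held with each library left out.

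Nrg1 was also called lower in Exc-Gpc6, where B6 measured 3027 and 3172 CPM and D2 2558 and 2621 CPM (-0.34 ± 0.08, adjusted p = 0.00393), a call lost without D2 library 2 (-0.33) or D2 library 3 (-0.34). In NN-ODC it measured 50.0 and 58.6 CPM in B6 and 40.5 and 21.0 CPM in D2 (-0.78 ± 0.23, adjusted p = 0.0230), and the call was lost without D2 library 3 (-0.38). In NN-VLMC it measured 81.1 and 158 CPM in B6 and 31.8 and 50.7 CPM in D2 (-1.67 ± 0.35, adjusted p = 0.000986), and the call was lost without B6 library 3 (-0.99) or D2 library 2 (-1.29). The strains were apart in all 3 types, and the calls in NN-ODC and NN-VLMC were lost under DESeq2. The neuronal markers given for NN-ODC beside Ntrk3 apply here too. In NN-VLMC the caudal ganglionic eminence sum was 76.6 and 105.6 CPM in B6 and 44.2 and 13.5 CPM in D2, with Adarb2 called lower, and 3 of the same 8 lists were lower in D2 and 5 overlapped. The part of neuronal RNA in these 2 differences of Nrg1 was not tested.

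Nrg2 had the fewest calls among the neuregulins. It was highest in Exc-DG, at a mean of 297 CPM (291 to 304), apart from Inh-Lamp5 at 214 CPM (197 to 227), which in turn was apart from NN-OPC at 140 CPM (122 to 153). The lowest level was in Exc-CA3, at 24.5 CPM (20.9 to 30.3). It was called in 1 of 17 types, NN-ODC, with 22.9 and 17.7 CPM in B6 and 52.5 and 41.3 CPM in D2, every D2 library above every B6 library (1.28 ± 0.23, adjusted p = 0.000301). That call held with each library left out and under DESeq2, and it went the other way from the calls for Ntrk3, Nrg1 and Nrg3 in the same type.

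Nrg3 was abundant in every neuronal type, from a mean of 2569 CPM in Inh-Lamp5 to 6222 CPM (5792 to 6555) in Exc-ENT. Among non-neuronal types it was highest in NN-OPC, at 1773 CPM (1715 to 1810), and lowest in NN-Astro, at 144 CPM (78.5 to 198). It was called lower in D2 in 9 of 17 types and higher in none, against 3.54% of the 12523 genes tested in at least 9 types that were called lower in at least 9. In 12 types both D2 libraries lay below both B6 libraries, as they did in 23.5% of the tested pairs over all genes and types. Among neurons the calls were in Exc-CA1-Fras1, Exc-CA3, Exc-ENT, Inh-CGE and Inh-Lamp5, with fold changes from -0.43 to -0.19. In Exc-CA1-Fras1, B6 measured 4865 and 4905 CPM and D2 4306 and 4114 CPM (-0.32 ± 0.06, adjusted p = 0.000186), with the strains apart and the call kept with each library left out, as it was in Exc-ENT. The calls in Exc-CA3, Inh-CGE and Inh-Lamp5 were each lost with any 1 of at least 2 of the 4 libraries left out (-0.63 to -0.18). That in Exc-CA3 was also lost under DESeq2. In Inh-CGE the calls of all genes were lost without D2 library 2 or D2 library 3, so those losses are not particular to Nrg3.

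In 4 of the 5 non-neuronal types the fold change of Nrg3 was larger. NN-Astro measured 188 and 198 CPM in B6 and 109 and 78.5 CPM in D2 (-0.99 ± 0.12, adjusted p = 8.53e-07). NN-ODC measured 215 and 252 CPM in B6 and 109 and 89.6 CPM in D2 (-1.18 ± 0.14, adjusted p = 1.90e-06), and NN-VLMC, vascular and leptomeningeal cells, measured 342 and 437 CPM in B6 and 168 and 98.0 CPM in D2 (-1.48 ± 0.25, adjusted p = 5.28e-05). In these 3 types the highest D2 library lay well below the lowest B6 library, and the calls held with each library left out and under DESeq2. NN-MGC, microglia, measured 547 and 401 CPM in B6 and 153 and 315 CPM in D2 (-0.96 ± 0.21, adjusted p = 0.00548), apart too, but the call was lost without D2 library 2 (-0.55) and under DESeq2. In NN-OPC, B6 measured 1769 and 1715 CPM and D2 1797 and 1810 CPM, with a fold change of 0.02 ± 0.08 that was not called.

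Levels of neuronal transcripts in the same non-neuronal columns are given beside this, since neurons held far more Nrg3. The summed level of 2 excitatory markers (Slc17a7 and Neurod6, neither at 0) was 72.6 and 72.3 CPM in B6 and 66.3 and 45.5 CPM in D2 in NN-Astro. In NN-ODC it was 89.0 and 80.55 CPM in B6 and 77.2 and 58.1 CPM in D2, and in NN-MGC 114.5 and 111 CPM in B6 and 95.3 and 102 CPM in D2. In NN-VLMC it was 72.1 and 92.9 CPM in B6 and 60.15 and 91.3 CPM in D2. These excitatory sums were lower in D2 in the first 3 types, by less than Nrg3, and overlapped in NN-VLMC. The sum of 3 pan-interneuron markers overlapped in NN-Astro and NN-ODC, and it was lower in D2 in NN-MGC (B6 25.7 and 26.0 CPM, D2 9.53 and 8.80 CPM) and in NN-VLMC (B6 18.0 and 38.0 CPM, D2 17.7 and 6.76 CPM). The medial ganglionic eminence list was lower in D2 in all 4 types, from 67.4 and 61.7 CPM to 48.7 and 36.3 CPM in NN-Astro, where 1 of its markers was called lower, and from 124 and 68.4 CPM to 54.8 and 58.1 CPM in NN-MGC. The caudal ganglionic eminence list was lower in NN-Astro, NN-ODC and NN-VLMC and overlapped in NN-MGC, and its difference in NN-VLMC, given above, was about the size of that of Nrg3. The CA1 list was higher in D2 in NN-Astro (B6 37.4 and 38.05 CPM, D2 43.1 and 40.8 CPM). It was lower in NN-ODC and overlapped in NN-MGC and NN-VLMC. The CA3 list was higher in NN-ODC and overlapped in NN-Astro, NN-MGC and NN-VLMC. The dentate granule list was higher in NN-ODC, lower in NN-Astro and NN-MGC and overlapped in NN-VLMC. The Lamp5 list was lower in NN-Astro and NN-ODC and overlapped in NN-MGC and NN-VLMC. Of the 2 excitatory markers in these 4 types, only Slc17a7 in NN-Astro was called lower (-0.48). The part of neuronal RNA in the difference of Nrg3 was not tested.

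2 antisense genes that overlap Nrg3 followed it across cell types. Nrg3os was lower in D2 in 12 of 17 types and Gm20642 in 14 of 17, and their levels correlated with that of Nrg3 over the 17 types with Pearson's r = 0.996 and 0.997, a description over types that share libraries. Strand use in the counting is not given in the sources used here, and whether reads of the 3 genes were kept separate was not tested.

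**Figure D2:**
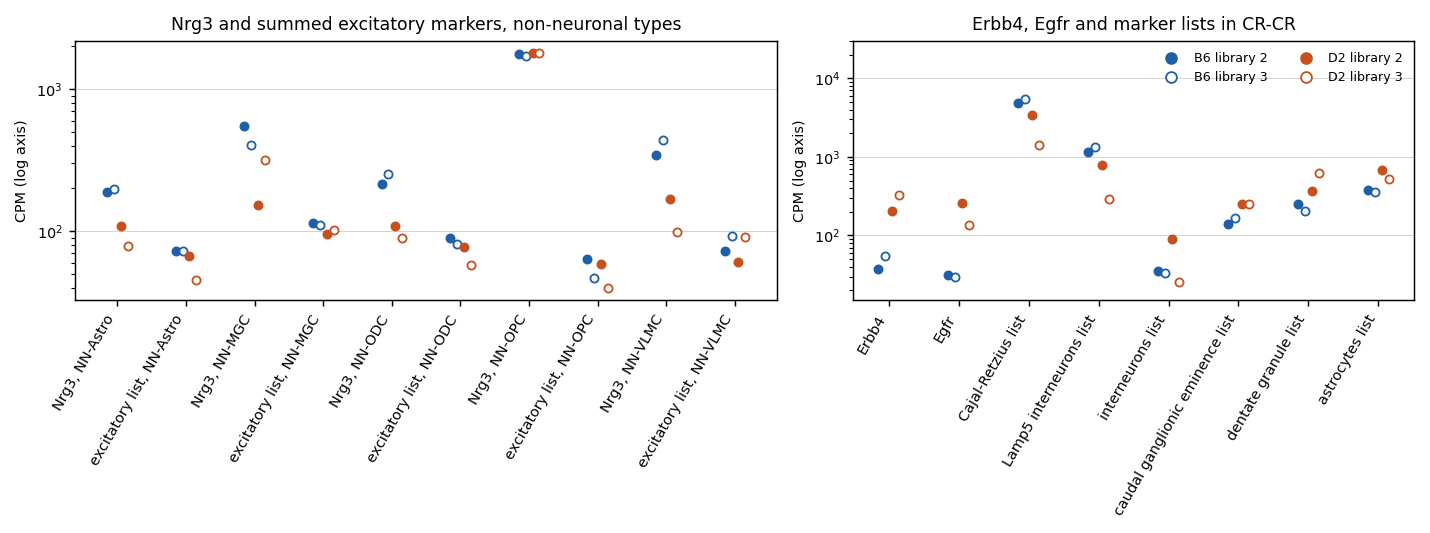
Left, Nrg3 and the summed level of 2 excitatory markers in the 5 non-neuronal types; right, Erbb4, Egfr and summed marker lists in CR-CR, all as CPM on a log axis with 1 point per library (blue B6, orange D2, filled library 2, open library 3). In NN-Astro Nrg3 falls from 188 and 198 CPM in B6 to 109 and 78.5 CPM in D2, while the excitatory sum goes from 72.6 and 72.3 CPM to 66.3 and 45.5 CPM.

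Of the receptors, Erbb4 had its highest levels in interneurons and the oligodendrocyte lineage. It was highest in Inh-Lamp5, at a mean of 11230 CPM (10660 to 11680), apart from Inh-CGE at 5872 CPM (5018 to 6879) and Inh-MGE at 5574 CPM (4614 to 6646), which overlapped. NN-OPC followed at 2467 CPM (2120 to 2918). In excitatory types the mean ran down to 16.2 CPM, in Exc-CA3. The highest type lay 190.5-fold above the median type for Erbb4, 101-fold for Egfr, 19.4-fold for Ntf3 and 4.85-fold for Nrg1. These were 4 of the 8 members with a mean of at least 5 CPM, the condition that left out Ngfr, and 27.1% of 13382 genes meeting it also passed 4-fold.

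In interneurons Erbb4 was called lower in D2 in Inh-CGE, where B6 measured 6290 and 6879 CPM and D2 5300 and 5018 CPM, apart (-0.41 ± 0.11, adjusted p = 0.0279). That call was lost without B6 library 3 (-0.34), D2 library 2 (-0.47) or D2 library 3 (-0.35). In Inh-CGE the calls of all genes were lost without D2 library 2 or D2 library 3, so those losses are not particular to Erbb4. In Inh-MGE the values were 5532 and 6646 CPM in B6 and 5504 and 4614 CPM in D2 (-0.34 ± 0.13, adjusted p = 0.0926), and in Inh-Lamp5 11680 and 11500 CPM in B6 and 11080 and 10660 CPM in D2 (-0.17 ± 0.09, adjusted p = 0.280). The D2 libraries lay below the B6 libraries in all 3 types, and neither of the last 2 differences was called.

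In the oligodendrocyte lineage Erbb4 was lower in D2 in NN-OPC, with 2918 and 2662 CPM in B6 and 2120 and 2167 CPM in D2 (-0.41 ± 0.08, adjusted p = 3.73e-05). In NN-ODC the strains were apart the other way, with 1714 and 1739 CPM in B6 and 1966 and 2005 CPM in D2, and the difference was not called (0.26 ± 0.09, adjusted p = 0.0548). In NN-Astro, astrocytes, Erbb4 measured 316 and 331 CPM in B6 and 157 and 199 CPM in D2 (-0.81 ± 0.11, adjusted p = 2.40e-06). The calls in NN-OPC and NN-Astro held with each library left out and under DESeq2. In the same NN-Astro columns the summed level of 3 oligodendrocyte markers (Mbp, Mog and Mag, none at 0) was 188 and 162 CPM in B6 and 82.4 and 71.6 CPM in D2, and all 3 were called lower in D2. The part of oligodendrocyte RNA in the Erbb4 difference there was not tested.

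Erbb4 was also called lower at low levels in Exc-DG, with 20.5 and 20.9 CPM in B6 and 14.4 and 14.6 CPM in D2 (-0.58 ± 0.13, adjusted p = 0.00380), a call lost under DESeq2. In Exc-CA1-Galntl6 it measured 20.7 and 30.0 CPM in B6 and 19.1 and 15.7 CPM in D2 (-0.59 ± 0.17, adjusted p = 0.0156), and the call was lost without B6 library 3 (-0.31) or D2 library 3 (-0.45) and under DESeq2. Some marker lists of types rich in Erbb4 were lower in D2 in the same columns, and others were not. The 3 oligodendrocyte markers summed to 142 and 143 CPM in B6 and 116 and 111 CPM in D2 in Exc-DG, with Mbp called lower, and to 90.9 and 93.7 CPM in B6 and 70.8 and 63.3 CPM in D2 in Exc-CA1-Galntl6, with Mbp and Mag called lower. The oligodendrocyte precursor sum went from 6.74 and 6.04 CPM to 3.91 and 3.54 CPM in Exc-DG and from 10.2 and 8.17 CPM to 4.90 and 5.53 CPM in Exc-CA1-Galntl6, with no marker at 0. The Lamp5 list was lower in Exc-CA1-Galntl6, with Lamp5 called lower, and overlapped in Exc-DG, and the caudal ganglionic eminence list was lower in Exc-DG and higher in Exc-CA1-Galntl6. The pan-interneuron and medial ganglionic eminence lists overlapped in Exc-CA1-Galntl6 and were lower in Exc-DG. There the pan-interneuron sum moved little, from 37.45 and 37.81 CPM in B6 to 35.29 and 36.05 CPM in D2. The part of RNA from other types in these calls was not tested.

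Egfr, the receptor of epidermal growth factor, lies on chromosome 11 from 16752203 to 16918158 of GRCm38 on the plus strand. It was highest in Inh-Lamp5, at a mean of 385 CPM (309 to 466), and in NN-Astro, at 351 CPM (311 to 378), with overlapping ranges, followed by NN-VLMC at 263 CPM (189 to 308). The lowest level was in Exc-ENT, at 1.06 CPM (0.638 to 1.74). It was tested in 9 types, called lower in D2 in 3 and higher in 1. In Inh-Lamp5, B6 measured 466 and 407 CPM and D2 309 and 359 CPM, apart (-0.46 ± 0.13, adjusted p = 0.0154), and in Inh-MGE, B6 measured 15.2 and 16.6 CPM and D2 7.64 and 9.48 CPM, apart (-0.99 ± 0.25, adjusted p = 0.0156). Both calls were lost without D2 library 2 (-0.38 and -0.84) and under DESeq2, the first also without B6 library 2 (-0.39) and the second without B6 library 3 (-0.90). In Exc-DG, B6 measured 10.0 and 10.7 CPM and D2 5.63 and 5.24 CPM (-0.99 ± 0.18, adjusted p = 0.000919), apart, and that call held with each library left out and under DESeq2. In NN-Astro B6 measured 374 and 311 CPM and D2 339 and 378 CPM, overlapping (0.11 ± 0.10, not called). The antisense gene Egfros, which overlaps Egfr, was lower in D2 in 4 of 7 types tested.

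The largest fold changes of the 9 genes were those in CR-CR for both ErbB receptors, which were higher in D2. Erbb4 measured 37.9 and 54.5 CPM in B6 and 202 and 327 CPM in D2 (2.45 ± 0.32, adjusted p = 0.000251). Egfr measured 31.6 and 29.3 CPM in B6 and 262 and 135 CPM in D2 (2.59 ± 0.38, adjusted p = 0.000844). For both genes the lowest D2 library lay above the highest B6 library, and both calls held with each library left out and under DESeq2, and were lost without a filter on low counts (2.33 and 2.47). Without that filter none of 18754 genes was called in CR-CR, so the loss is not particular to Erbb4 and Egfr.

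The CR-CR columns themselves differed between strains. They held 171 and 138 nuclei in B6 and 45 and 46 in D2. The summed level of 3 Cajal-Retzius markers (Reln, Trp73 and Lhx1, none at 0) was 4894 and 5420 CPM in B6 and 3412 and 1416 CPM in D2, and Trp73 was called lower. The summed astrocyte markers measured 381 and 354 CPM in B6 and 681 and 525 CPM in D2, mainly Slc1a2. The caudal ganglionic eminence list measured 141 and 166 CPM in B6 and 254 and 250 CPM in D2, the dentate granule list 255 and 203 CPM in B6 and 367 and 622 CPM in D2, and the 3 pan-interneuron markers 35.8 and 33.5 CPM in B6 and 89.8 and 25.6 CPM in D2. Of the 13 marker lists of other types, 5 were higher in both D2 libraries, 3 were lower and 5 overlapped, and Prox1 was called higher in D2. The 3 lower lists were those of Lamp5 interneurons, oligodendrocytes and oligodendrocyte precursors, all types rich in Erbb4. The Lamp5 sum, mainly Ndnf, was 1139 and 1318 CPM in B6 and 778 and 295 CPM in D2. The oligodendrocyte sum was 196 and 121.5 CPM in B6 and 59.9 and 96.1 CPM in D2. The precursor sum was 52.6 and 75.4 CPM in B6 and 22.45 and 25.6 CPM in D2. The part of other nuclei or of a shifted cluster in the differences of Erbb4 and Egfr was not tested.

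The start of Egfr is shown because it lies in the one main promoter peak of the 9 genes with a strain difference, described further on. The sequence is the reference (B6) sequence of chr11:16751953-16752202, plus strand, from RefSeq (GRCm38.p6), with each CG in capitals. It holds 11 CG, and 35.6% of promoter stretches of that length hold as many.
Egfr promoter: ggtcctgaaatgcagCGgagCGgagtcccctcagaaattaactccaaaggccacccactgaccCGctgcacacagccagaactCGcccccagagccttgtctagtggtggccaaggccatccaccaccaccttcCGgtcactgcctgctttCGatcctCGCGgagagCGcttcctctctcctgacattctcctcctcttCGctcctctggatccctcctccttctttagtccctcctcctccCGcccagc

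Over all tested pairs of a gene and a cell type, 36 of the 121 pairs of the 9 genes were called lower in D2 and 6 higher. Over the 205592 pairs of all genes, 8.4% were called lower and 6.24% higher. The 9 genes were chosen with earlier results of these data known, so these shares are given as a description only. The median fold change was -0.19 for the 9 genes and 0.01 for all genes. The 12 calls of Ntrk2 and the 9 of Nrg3 made up 21 of the 36. Of the 42 calls, 22 held with each library left out in turn, and DESeq2 called 22 pairs lower and 5 higher.

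**Figure D3:**
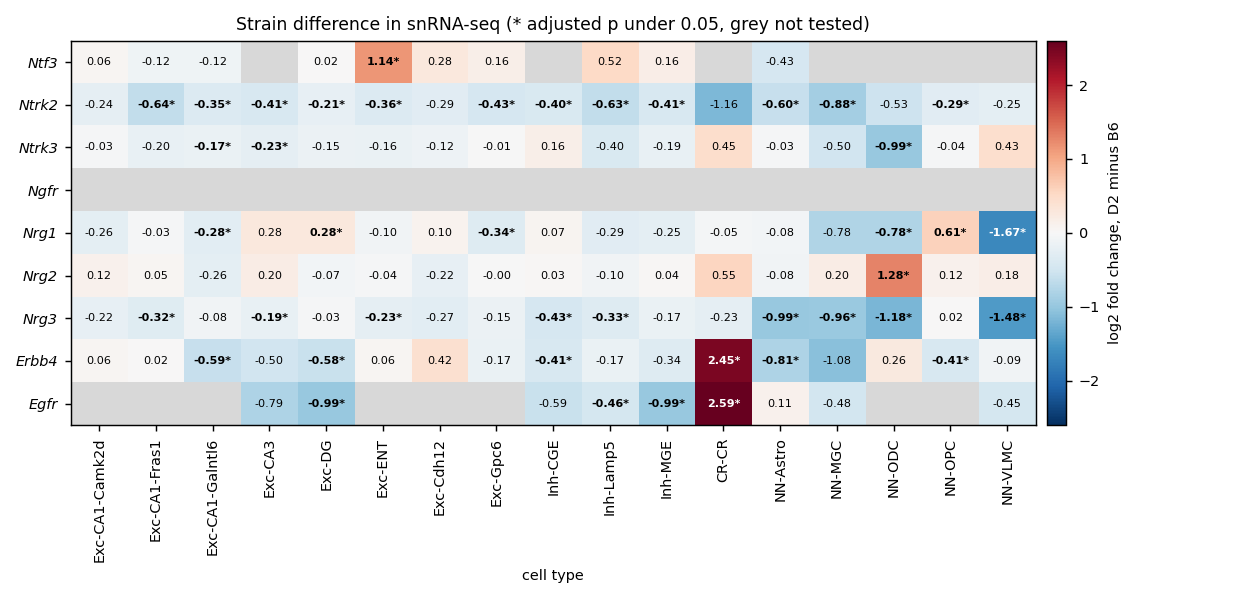
Strain difference (log2 fold change, D2 minus B6) of the 9 genes in 17 cell types; the number in each cell is the fold change, bold with a star where the adjusted p was under 0.05, and grey cells were not tested. Ntrk2 is below 0 in all 17 types, and Erbb4 and Egfr in CR-CR, at 2.45 and 2.59, are the largest values.

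By cell type, the count of the 9 genes called stands beside the share of all tested genes called in that type, in either direction. Among CA1 types, 0 of 7 tested genes were called in Exc-CA1-Camk2d against 9.4% of all genes, 2 of 7 in Exc-CA1-Fras1 against 20.2%, and 4 of 7 in Exc-CA1-Galntl6 against 26.0%. For the other excitatory types the counts were 3 of 7 in Exc-CA3 against 21.9%, 4 of 8 in Exc-DG against 25.6%, 3 of 7 in Exc-ENT against 18.6%, 2 of 7 in Exc-Gpc6 against 12.5% and 0 of 7 in Exc-Cdh12 against 3.3%. The interneuron types had 3 of 7 in Inh-CGE against 8.13%, 3 of 8 in Inh-Lamp5 against 8.43% and 2 of 8 in Inh-MGE against 11.8%. The non-neuronal types had 3 of 8 in NN-Astro against 18.7%, 2 of 7 in NN-MGC against 8.13%, 4 of 6 in NN-ODC against 14.2%, 3 of 6 in NN-OPC against 11.3% and 2 of 7 in NN-VLMC against 5.82%. CR-CR had 2 of 7 against 2.2%. In Exc-CA1-Camk2d and Exc-Cdh12, with 0 calls by edgeR, DESeq2 also called 0, and 0 of the 7 genes had an unadjusted p under 0.05 in either.

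Whether the strain difference of a gene itself differed between cell types was tested with an interaction of cell type and strain in edgeR, with the library as a term, over 18599 genes, of which 16.6% were called. Of the 9 genes, 6 were called, with an adjusted p of 4.27e-07 for Egfr, 5.11e-06 for Nrg3, 7.39e-06 for Erbb4, 0.000952 for Nrg1, 0.00145 for Ntrk3 and 0.0268 for Nrg2. Ntrk2, below 0 in all types, had an adjusted p of 0.0521, and it passed the threshold without B6 library 3 (0.00438) or D2 library 2 (0.0454) and with a looser filter on low counts (0.00255). Ntf3 had 0.314 and Ngfr 0.982. The calls of Egfr, Nrg3 and Erbb4 also held with limma-voom, and those of Nrg1 (0.119), Ntrk3 (0.194) and Nrg2 (0.830) did not. That of Ntrk3 was lost without D2 library 3 (0.144), and that of Nrg2 without D2 library 2 (0.232) or D2 library 3 (0.0889).

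The other genes of the same pathways moved in both directions. Of 14 neurotrophin pathway genes, 12 were tested, and of their 165 pairs 10 were higher in D2 and 13 lower, 13.94% in all. Of 19 ErbB pathway genes, 16 were tested, and of their 181 pairs 18 were higher and 8 lower, 14.36% in all, where all genes had 14.64%. The median fold changes were -0.06 and 0.10. Both shares lay near that of all genes. Under DESeq2 the calls of both lists fell from 28 to 7 higher and from 21 to 9 lower.

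3 of the 33 pathway genes were called in at least 5 types. Sorcs2, a sorting receptor that pairs with Ngfr, was lower in D2 in 6 excitatory types and higher in NN-Astro. In Exc-DG it measured 172 and 153 CPM in B6 and 102 and 101 CPM in D2, apart (-0.74 ± 0.08, adjusted p = 6.19e-06), and in NN-Astro 174 and 156 CPM in B6 and 237 and 225 CPM in D2, apart in the other direction (0.53 ± 0.10, adjusted p = 0.000417). Without D2 library 3 the calls in Exc-CA1-Camk2d (-0.75), Exc-CA1-Fras1 (-0.28) and Exc-ENT (-0.21) were lost, and those in Exc-CA1-Camk2d and Exc-ENT were also lost under DESeq2. Nrg4, a neuregulin that binds ErbB4, was lower in 5 types at low levels. In Exc-CA3 it measured 10.9 and 11.5 CPM in B6 and 3.15 and 4.36 CPM in D2, apart (-1.66 ± 0.26, adjusted p = 0.000334). Its calls in Exc-CA1-Fras1 and Exc-CA1-Galntl6 were lost under DESeq2, the second also without B6 library 2 (-0.92) or D2 library 2 (-0.92). Egf, a ligand of Egfr, was higher in 5 types, and in Inh-MGE it measured 3.72 and 3.78 CPM in B6 and 9.17 and 13.1 CPM in D2, apart (1.46 ± 0.34, adjusted p = 0.00835). All 5 calls of Egf were lost under DESeq2 and with at least 1 library left out. Bdnf, the ligand of TrkB, was tested in 10 types and called higher in 3 and lower in 1, with its highest mean, 53.3 CPM, in Exc-DG.

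The genes with levels most like each member over the 17 cell types were found by Pearson's r of log2(CPM + 1) among genes with a mean of at least 5 CPM, as a description over types that share the 4 libraries. Overlapping or antisense genes led for Ntrk2 (Gm47423, r = 0.964), Nrg2 (4930471G03Rik, r = 0.929), Nrg3 (Gm20642 and Nrg3os) and Egfr (Egfros, r = 0.991). After these came Nol4 (r = 0.928) and 4930570B17Rik (r = 0.912) for Ntrk2, B230217C12Rik (r = 0.825) and Cygb (r = 0.822) for Nrg2, C630031E19Rik (r = 0.987) for Nrg3, and Nfyc (r = 0.891) and Gad1os (r = 0.847) for Egfr. For Ntf3 they were Rskr (r = 0.890), Gabrd (r = 0.822) and Kcng3 (r = 0.804), and for Ntrk3 D630045J12Rik (r = 0.924), Fndc9 (r = 0.912) and Sptan1 (r = 0.904). Nrg1 was most like 5730522E02Rik (r = 0.929), Stox1 (r = 0.922) and Ephb2 (r = 0.900), and Erbb4 most like Gm42695 (r = 0.939), Sox2ot (r = 0.913) and the kainate receptor gene Grik1 (r = 0.893). The genes most like Ngfr, Adgrl4 (r = 0.934), Atg4a (r = 0.929) and Egflam (r = 0.925), were all highest in NN-VLMC, but the values of Ngfr rest on 64 counts. Among the members the highest r was 0.811, between Nrg1 and Nrg3, and that of Erbb4 with Nrg1 was -0.35.

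In snATAC-seq, which measures accessible chromatin, 703 peaks lay on the 9 genes, counting 2 kb beyond each end, and 26 of them within 1 kb of an annotated transcript start. The types of the snATAC-seq nuclei were assigned by the authors through integration with the snRNA-seq nuclei, so likeness across types is partly built in. Over the 15 shared types, the level of the main promoter peak, the one with the highest mean over types, went with the RNA level, with Pearson's r of log2(CPM + 1) from 0.953 for Erbb4 and 0.912 for Nrg1 to 0.779 for Nrg2 and 0.662 for Ngfr. The main promoter peak of Ntrk3 lay at an annotated transcript start inside the gene, 159.8 kb from the gene start, and that of Ntf3 lay 3.4 kb from it. The promoter peak of Erbb4 measured 54.6 CPM in NN-ODC and 8.25 CPM in Exc-CA1-Fras1. That of Egfr measured 38.3 CPM in NN-Astro and 3.67 CPM in Exc-CA1-Fras1, and that of Ntrk2 92.6 CPM in Exc-Cdh12 and 30.9 CPM in NN-MGC.

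**Figure D4:**
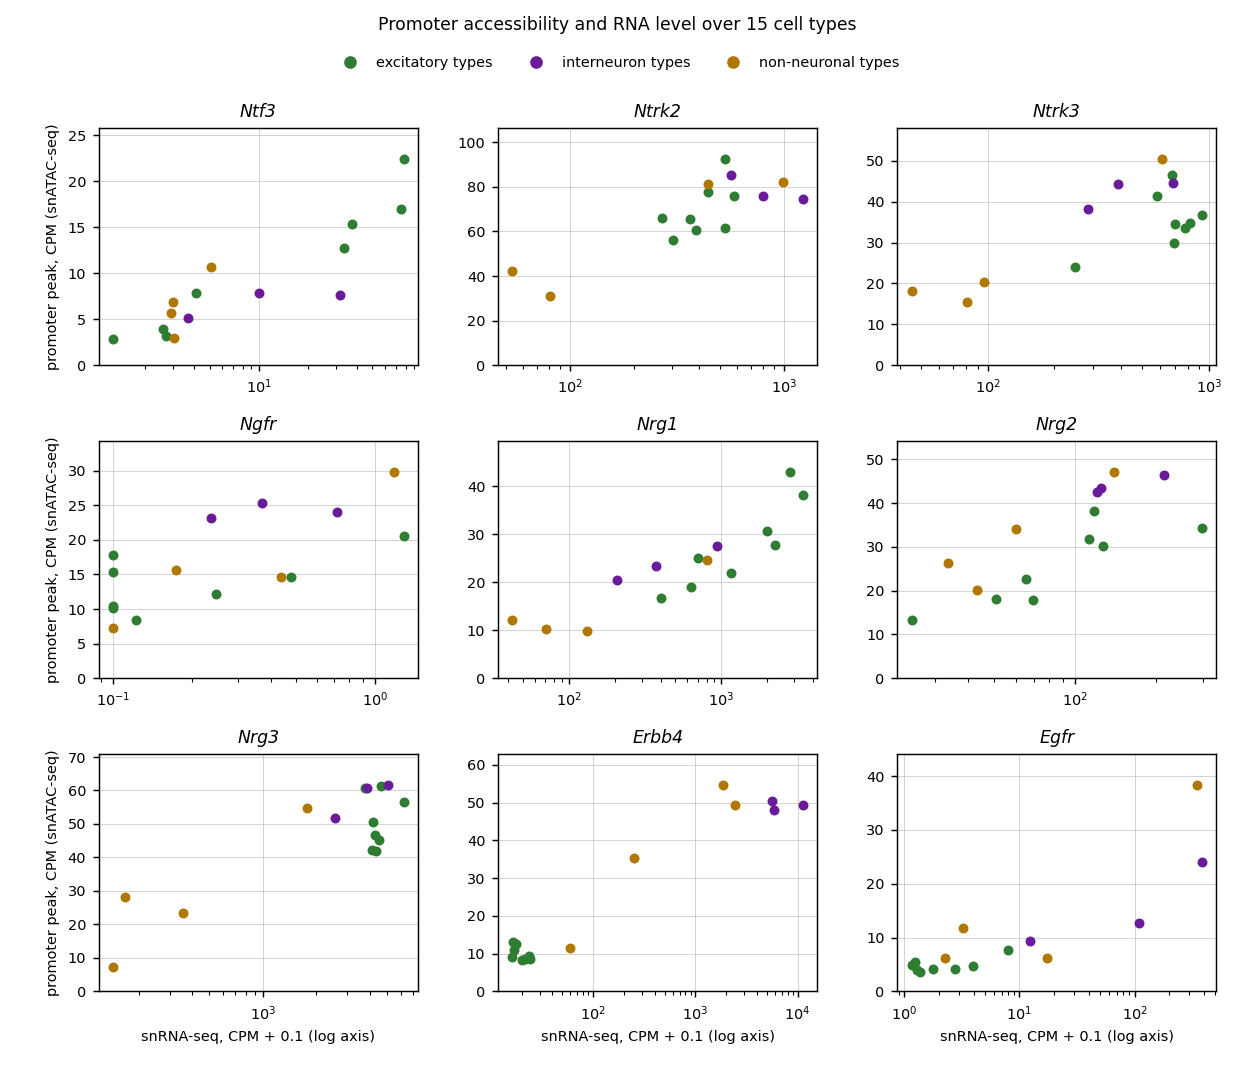
Main promoter peak in snATAC-seq (mean CPM over 4 libraries) against the RNA level (mean CPM plus 0.1, log axis) for the 9 genes, with 1 point per cell type for 15 types, coloured by class. For Erbb4 the interneuron types and 2 oligodendrocyte-lineage types lie high on both axes and the excitatory types low on both. The Ntrk3 peak lies 159.8 kb from the gene start.

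Strain differences in accessibility were tested in the 6 excitatory types with at least 5000000 counts in every library. Over their 4000 pairs of a peak and a type at the 9 genes, 86 were higher in D2 and 50 lower, 3.40% in all. Over all peaks 1.97% were higher and 1.86% lower. The number of calls depended on the libraries and the tool. It was 52 higher and 35 lower without B6 library 2, 57 and 29 without B6 library 3, 43 and 25 without D2 library 2, 35 and 17 without D2 library 3, and 19 and 8 under DESeq2. By type the peaks of the 9 genes had 13 calls of 668 in Exc-CA1-Camk2d against 2.56% of all peaks, 11 of 643 in Exc-CA1-Fras1 against 2.18%, 31 of 698 in Exc-CA1-Galntl6 against 5.26%, 35 of 698 in Exc-CA3 against 5.03%, 42 of 695 in Exc-DG against 5.97% and 4 of 598 in Exc-ENT against 1.39%.

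The calls lay mainly on 2 genes. At Nrg1, 80 of 796 pairs (10.1%) were called, 51 higher and 29 lower, on 48 of its 141 peaks, and at Erbb4 29 of 252 pairs (11.5%), 19 higher and 10 lower, on 18 of its 58 peaks. DESeq2 called 16 pairs at Nrg1 and 8 at Erbb4, and with 1 library left out the calls ranged from 30 to 56 at Nrg1 and from 13 to 19 at Erbb4, lowest without D2 library 3. At Nrg3, the gene with the most peaks, 12 of 1454 pairs were called, and at Ntrk2, lower in RNA in 12 types, 1 of 390. Ntrk3 had 7 of 670, Nrg2 3 of 179, Egfr 3 of 149, Ntf3 1 of 92 and Ngfr 0 of 18, of which 1 had an unadjusted p under 0.05 and DESeq2 called 0. In Exc-DG, where Nrg1 RNA was higher in D2, 20 of the 22 Nrg1 peaks called were higher. Over all peaks called in Exc-DG, 10077 were higher and 7681 lower. In Exc-CA1-Galntl6, where Nrg1 RNA was lower in D2, 9 Nrg1 peaks were lower and 8 higher. Where Nrg1 RNA was not called, 14 were higher and 7 lower in Exc-CA3, and 4 higher and 7 lower in Exc-CA1-Camk2d. In Exc-CA1-Fras1 4 were higher and 2 lower, and in Exc-ENT 1 was higher and 2 lower.

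**Figure D5:**
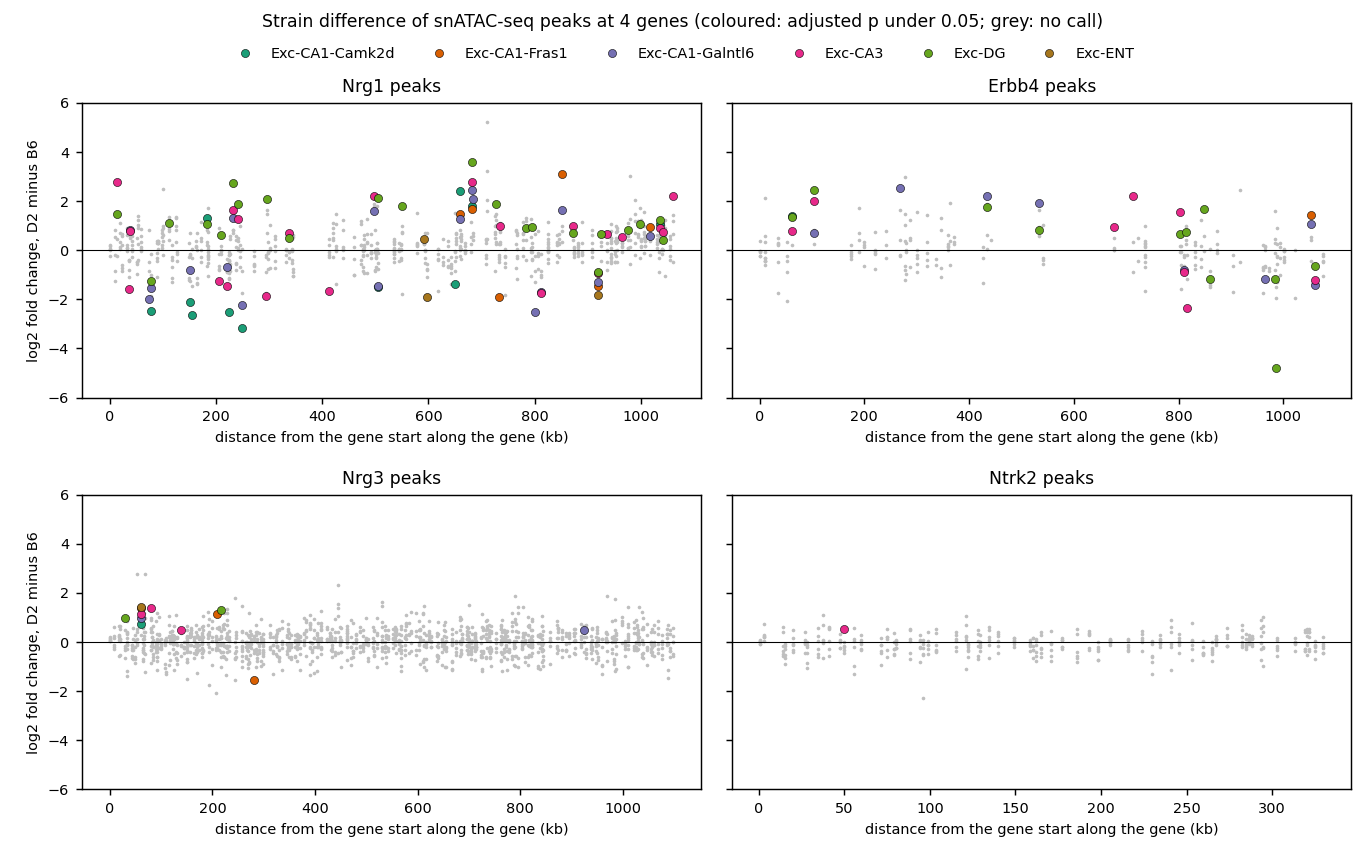
Strain difference of each peak (log2 fold change, D2 minus B6) against its distance from the gene start along the gene (kb) for Nrg1, Erbb4, Nrg3 and Ntrk2, in 6 excitatory types; coloured points had an adjusted p under 0.05 and grey points did not. Calls in both directions are spread over Nrg1 and Erbb4, while Ntrk2 has 1 call of 390 and Nrg3 12 of 1454.

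The main promoter peak was called in 1 gene and 1 type. At the start of Egfr, in Exc-DG, it measured 8.36 and 9.88 CPM in B6 and 5.58 and 6.94 CPM in D2, apart (-0.47 ± 0.13, adjusted p = 0.00868). The call was lost without B6 library 3 (-0.34) or D2 library 2 (-0.35) and under DESeq2. Over the 54 tests of the 9 main promoter peaks, 8 had an unadjusted p under 0.05 and DESeq2 called 0. Over all 26 promoter peaks, 5 of 151 pairs were called, 1 higher in D2 and 4 lower, on 4 peaks. That share was 3.31%, against 3.83% over all peaks. The start peak of Ntrk2 was called in 0 of 6 types by edgeR and by DESeq2, with 0 at an unadjusted p under 0.05. Both other Egfr peaks called were also in Exc-DG and lower, 14.2 kb from the start (-1.17 ± 0.36) and 24.2 kb from it (-1.67 ± 0.47), both intronic, and each lost its call with at least 1 library left out (-1.58 to -0.94) and under DESeq2. Egfr RNA was lower in D2 in Exc-DG as well.

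3 peaks were called in 5 of the 6 types in one direction, the most of any peak at the 9 genes. They were chosen after their values were seen. All 3 are intronic. The Nrg3 peak at chr14:39412954-39413914, 59.7 kb from the start, was higher in D2 in every type but Exc-DG. In Exc-CA3 it measured 4.51 and 5.07 CPM in B6 and 9.42 and 10.8 CPM in D2, apart (1.14 ± 0.15, adjusted p = 2.50e-10). Nrg3 RNA was lower there, a call lost under DESeq2 and without B6 library 2 or B6 library 3. In Exc-CA1-Fras1 the peak was also higher and the RNA lower, and both calls held with each library left out. The Nrg1 peak at chr8:31964433-31965207, 919.2 kb from the start, was lower in every type but Exc-CA1-Camk2d, and in Exc-DG it measured 8.03 and 8.71 CPM in B6 and 5.08 and 3.88 CPM in D2, apart (-0.89 ± 0.14, adjusted p = 1.43e-07). The Nrg1 peak at chr8:32201178-32201935, 682.5 kb from the start, was higher in every type but Exc-ENT. In Exc-CA1-Galntl6 it measured 0.494 and 1.01 CPM in B6 and 4.40 and 3.66 CPM in D2, apart (2.45 ± 0.28, adjusted p = 9.18e-16). Of the 15 calls of these 3 peaks, the 7 that held with each library left out were for the Nrg3 peak in Exc-CA1-Fras1 and Exc-CA1-Galntl6, for the first Nrg1 peak in Exc-CA1-Fras1, Exc-CA1-Galntl6 and Exc-DG, and for the second in Exc-CA1-Galntl6 and Exc-DG. Without D2 library 2 or D2 library 3, most calls over all peaks of Exc-CA3 were lost as well.

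The largest difference in size among the calls was at an Erbb4 intron, at chr1:68122518-68122948, 985.3 kb from the start. In Exc-DG it measured 5.09 and 5.27 CPM in B6 and 0.221 and 0.144 CPM in D2, from 123, 113, 4 and 4 counts, far apart (-4.80 ± 0.33, adjusted p = 1.11e-36). It was called in no other type. Of the 11 Erbb4 peaks called in Exc-DG, 7 were higher in D2 and 4 lower. Erbb4 RNA was lower in D2 in Exc-DG, at 14.4 to 20.9 CPM over the 4 libraries, a call lost under DESeq2.

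The middle 200 bases of these 4 peaks are shown because they carry the most repeated differences and the largest one. They are the reference (B6) sequence of GRCm38, plus strand, with each CG in capitals, and D2 bases were not read. They lie at chr14:39413334-39413533, chr8:31964720-31964919, chr8:32201456-32201655 and chr1:68122633-68122832.
Nrg3 peak, higher in D2: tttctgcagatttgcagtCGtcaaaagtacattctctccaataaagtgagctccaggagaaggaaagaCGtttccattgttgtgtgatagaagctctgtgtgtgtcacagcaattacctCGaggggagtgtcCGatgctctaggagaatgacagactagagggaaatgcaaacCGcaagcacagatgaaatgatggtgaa
Nrg1 peak, lower in D2: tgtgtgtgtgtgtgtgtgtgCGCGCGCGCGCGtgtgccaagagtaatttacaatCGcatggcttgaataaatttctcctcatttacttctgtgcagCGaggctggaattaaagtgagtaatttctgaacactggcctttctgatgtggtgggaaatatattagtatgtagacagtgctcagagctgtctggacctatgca
Nrg1 peak, higher in D2: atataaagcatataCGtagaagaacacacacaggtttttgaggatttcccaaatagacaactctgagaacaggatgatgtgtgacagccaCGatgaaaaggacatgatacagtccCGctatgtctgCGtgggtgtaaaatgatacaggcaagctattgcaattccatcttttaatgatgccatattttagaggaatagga
Erbb4 peak, lower in D2 in Exc-DG: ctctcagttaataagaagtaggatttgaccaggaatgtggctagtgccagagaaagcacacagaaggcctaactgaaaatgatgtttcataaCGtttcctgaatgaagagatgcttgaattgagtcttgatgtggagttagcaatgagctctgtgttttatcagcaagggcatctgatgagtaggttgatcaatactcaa

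The windows hold 5, 8, 4 and 1 CG in that order. Over the 300773 windows of all peaks the median was 2, and 18.1%, 6.93%, 27.2% and 83.4% of windows held as many. Most CG of the Nrg1 window that was lower in D2 stand in one short CG repeat. The authors' peak counts for D2 rest on reads aligned to a reference with D2 single-base substitutions in place, and the part of alignment in these differences was not tested.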

How the data were processed

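The authors aligned snRNA-seq reads with Cell Ranger 6.0.2, keeping intronic reads, and those of snATAC-seq with Cell Ranger ATAC 2.0.0, using mm10 for B6 and mm10 with D2 single-base substitutions for D2, and a GENCODE annotation whose release is not given in the sources used here. They removed doublets with DoubletFinder, called peaks with MACS in each sample, merged them, and deposited raw counts summed per cell type and library. Their differential test was DESeq2 at default settings. The numbers of nuclei per column are also the authors' counts. The tables number libraries 2 and 3, while the labels number replicates 1 and 2, so columns were placed in a strain and not on a sample. The 16 methylation samples were not analysed here, nor were cell barcodes.

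The 9 genes and the marker and pathway lists were chosen with earlier results of these data known. One marker of the excitatory list is not reported here, and its counts are not in the sums. Symbols with counts in only one strain (0.814% of B6 and 3.55% of D2 counts) were left out, since the gene lists of the strains differ. There were 960 such symbols for B6 and 8204 for D2. Each cell type was fitted with edgeR 4.0.16 in R 4.3.3 (TMM, filterByExpr, glmQLFit, glmQLFTest, D2 minus B6, no covariate), with Benjamini-Hochberg adjustment within the type. Peaks with at least 10 counts over the 4 libraries were fitted likewise in types with at least 5000000 counts per library. The interaction fit had cell type and library as terms. The scripts were tested on simulated counts. P-values measure the spread between pools of about 2 animals, and floors (3 counts) cover counting error only.

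Genes named were the 9, pathway genes called in at least 5 types, and the 3 genes most like each member. Other genes (Gm47423, Nrg3os, Egfros, Bdnf and markers) were named after their values were seen. Alternatives were DESeq2 1.42.0, RLE scaling, no filter on low counts, all symbols, other adjustment, a replicate block, a minimum of 40 counts for peaks, limma-voom (limma 3.58.1) for the interaction, and leaving out each library. Adding the counts of overlapping same-strand symbols was chosen after seeing the data. Same-numbered libraries did not deviate together (correlations of -0.177 to 0.0762 over the 17 types).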

Additional observations from a re-analysis of the deposited data

Results flagged for a closer look

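The strain difference of 6 genes differed between cell types by the interaction of cell type and strain in edgeR, with an adjusted p of 4.27e-07 for Egfr, 5.11e-06 for Nrg3, 7.39e-06 for Erbb4, 0.000952 for Nrg1, 0.00145 for Ntrk3 and 0.0268 for Nrg2. For Egfr the fold changes ran from -0.99 in Exc-DG to 2.59 in CR-CR, and for Erbb4 from -1.08 in NN-MGC, not called there, to 2.45 in CR-CR. For Nrg3 they ran from -1.48 in NN-VLMC to 0.02 in NN-OPC, for Nrg1 from -1.67 in NN-VLMC to 0.61 in NN-OPC, for Ntrk3 from -0.99 in NN-ODC to 0.45 in CR-CR, not called there, and for Nrg2 from -0.26 in Exc-CA1-Galntl6, not called there, to 1.28 in NN-ODC. Groups of 2 libraries are too small for a test of single libraries that stand apart.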

How the results depend on the processing

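No called fold change of the 9 genes, of the 3 pathway genes called in at least 5 types or of the named peaks changed sign under any alternative run. Marker genes, antisense genes and the other pathway genes were not checked in this way. Of the 42 calls of the 9 genes, DESeq2 kept 27, RLE scaling and all symbols kept 42, adjustment over all cell types and the added same-strand counts kept 41 each, and no filter on low counts kept 37. Under DESeq2 the calls lower in D2 went from 36 to 22, the pathway calls from 21 lower and 28 higher to 9 and 7, and the peak calls from 50 lower and 86 higher to 8 and 19. With each library left out the members' lower calls ranged from 25 to 33 and the higher calls from 5 to 8, the types called for Ntrk2 from 6 to 10 (12 with all) and for Nrg3 from 6 to 8 (9 with all). In the same way the pathway calls ranged from 12 to 20 lower and 18 to 27 higher, the peak calls from 17 to 35 lower and 35 to 57 higher, and the genes whose strain difference differed between types from 4 to 7 (6 with all). Limma-voom called 3 of these 6. Ntrk2 stayed below 0 in all 17 types except without B6 library 2 or B6 library 3, when 1 type was above 0 (0.10 and 0.13).

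Library numbers did not pair the samples. With the library number as a replicate block the members had 38 lower and 7 higher calls, 3 of the 42 calls were lost, the pathway genes had 25 lower and 29 higher, and the peaks 49 lower and 89 higher. Depth limits Ngfr, at 64 counts, CR-CR, at 139713 to 482936 counts per library, and snATAC-seq in interneurons and non-neuronal types, where peaks were not tested.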

Other observations

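Among pathway genes not described above, chosen after their values were seen, Plcg1, which encodes a phospholipase C downstream of Trk and ErbB receptors, was called lower in D2 in 2 of the 17 types in which it was tested (median fold change -0.30). Bace1, the protease that cleaves neuregulin-1, was called higher in 2 of 17 types (median 0.19). Erbb3, a neuregulin receptor of glia, was highest in NN-ODC, at a mean of 92.4 CPM, was tested in 2 types and called higher in 1. Hbegf, a ligand of Egfr and ErbB4, was highest in NN-Astro, at 27.4 CPM, and called higher in 2 of 7 types. Over the tested pairs of all genes and types, 8.4% were called lower and 6.24% higher, and with 1 or 2 calls a gene these counts are given as a description only.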
